A study of Mus musculus with 19 samples.

Results

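The genes that set the fate of helper T cells were followed in blood leukocytes of DBA/2 and B6 mice after administration of CAWS, the water-soluble fraction of *Candida albicans* that induces vasculitis in mice. They were 9 genes: Tbx21, Gata3, Foxp3, Il12rb1, Il12rb2, Il2ra, Ctla4, Icos and Il10. Every non-control probe that the array names for one of them was taken, which gave 13 of 41174 probes. Of these, 7 probes of 6 genes were well above background, by the scanner software's own call, in at least 2 of the 18 samples and were tested. Foxp3, Il12rb2 and Ctla4 were not.

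Male mice of both strains, whose ages are known only as a range over all animals, received CAWS intraperitoneally, and leukocyte RNA of whole blood was collected right after the last injection (0 w) and in weeks 2 and 4 (2 w, 4 w) and weeks 8 and 9 (8 w, 9 w) after it. CAWS is lethal to DBA/2 mice and not to B6 mice, and only surviving animals could be sampled at the later weeks. Each of the 5 DBA/2 groups held 2 samples. The B6 groups of 0 w, 4 w and 8 w held 2 samples each, whereas those of 2 w and 9 w held 1. Mice given no CAWS are not among these samples, so every change is a change from 0 w, when all mice had already been injected. By the study's methods each array held RNA of an individual mouse. The samples of a group lay on different slides, so the p values measure a spread in which mouse and slide are not separated. Each sample was hybridized to a single-color array, except that B6 0 w replicate 2 was measured on 2 arrays, which were averaged.

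Naive helper T cells take on a fate according to the cytokines around them. Interleukin 12, read by a receptor made of the chains Il12rb1 and Il12rb2, and interferon-gamma favor the Th1 fate, which the transcription factor T-bet (Tbx21) directs. Gata3 directs the Th2 fate and is also needed by all T cells during their development, and Foxp3 directs the fate of regulatory T cells, which carry much interleukin 2 receptor alpha chain (Il2ra) and the inhibitory receptor Ctla4. Icos is a costimulatory receptor of activated T cells, and Il10 encodes an anti-inflammatory cytokine that many leukocytes make. T-bet and both interleukin 12 receptor chains are also used by NK cells, which are part of the blood leukocytes measured.

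The promoters of the factors that head the Th1 and Th2 programmes are shown because these were the fate-directing factors measured on every array. The 250 bases before the annotated start of transcription are given 5′ to 3′ on the strand of the gene, from RefSeq's annotation of GRCm38.p6, at chr11:97115332-97115581 on the minus strand for Tbx21 and at chr2:9878601-9878850 on the minus strand for Gata3. Capitals mark matches, on either strand, to a kappaB-type motif, spelled as 3 G, any 5 bases and 2 C.
Tbx21 promoter: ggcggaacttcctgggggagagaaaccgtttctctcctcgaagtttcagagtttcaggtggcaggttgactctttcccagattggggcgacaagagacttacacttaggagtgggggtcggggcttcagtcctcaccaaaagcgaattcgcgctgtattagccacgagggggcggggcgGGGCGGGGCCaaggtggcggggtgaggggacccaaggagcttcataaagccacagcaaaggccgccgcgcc
Gata3 promoter: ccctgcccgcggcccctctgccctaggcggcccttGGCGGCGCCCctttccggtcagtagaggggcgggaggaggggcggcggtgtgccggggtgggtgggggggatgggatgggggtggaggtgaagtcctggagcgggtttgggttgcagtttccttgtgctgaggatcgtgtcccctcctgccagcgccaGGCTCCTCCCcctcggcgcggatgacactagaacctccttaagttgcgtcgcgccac
Of the 32851 promoters of that length, 45.8% hold this motif. The STAT motif TTCNNNGAA (7.02% of promoters), the GATA motif GATAA (22.6%), the T-box motif TCACAC (12.3%) and an interferon response motif of 2 GAAA with any 2 bases between them (2.98%) had no match in either window. A match is a string of letters and not a site of binding. The promoter table held 6 of the 9 genes, and Il12rb1, Icos and Il10 were not among them.

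All levels below are normalized log2 signals, on which 0 is the 75th percentile of those probes that each of the 19 arrays detected well above background, and levels of different probes are not compared. From 33.9% to 51.4% of the 43379 spots of an array were well above background. All 8 pan T cell genes were well above background in every group, but Cd4, the defining surface marker of helper T cells, in 6 of 18 samples. On DBA/2 9 w replicate 2, 1187 spots were marked as outliers by the software, against 64 to 180 on the other arrays. The summed level of 9 hepatocyte genes, on a linear scale where 1 is the 75th percentile, was 45.0 to 46.3 in the B6 0 w samples and 23.6 to 24.9 in the B6 8 w samples, against 0.645 to 1.64 in all others. The B6 0 w samples are the baseline of every B6 change, and the part of this signal in the members' values was not tested. The DBA/2 samples of 0 w, 2 w, 4 w and 8 w shared a slide within each replicate number. The DBA/2 9 w samples lay on slides with B6 samples, so that slide could not be used as a block for their changes.

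Tbx21 (NM_019507; probe at chr11:96914193-96914252 on mm8), which encodes T-bet, moved in opposite directions in the strains at 4 w. Its DBA/2 levels were -0.46 and -0.75 at 0 w, -0.24 and -0.53 at 2 w, 0.36 and 0.31 at 4 w, -0.20 and -0.37 at 8 w, and -0.43 and 0.50 at 9 w. Its B6 levels were 0.41 and 0.44 at 0 w, 0.12 at 2 w, -0.73 and -0.63 at 4 w, -0.14 and 0.05 at 8 w, and -0.36 at 9 w. Both DBA/2 samples at 4 w lay above both at 0 w, and both B6 samples at 4 w lay below all other B6 samples. The 2 DBA/2 samples at 9 w lay far apart, 1 of them the highest of all samples. Ordered by group mean, B6 0 w stood highest and B6 4 w lowest, and the neighbours from DBA/2 8 w through B6 9 w, DBA/2 2 w and DBA/2 0 w to B6 4 w overlapped in their samples or lay within the range of their neighbour.

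**Figure D1:**
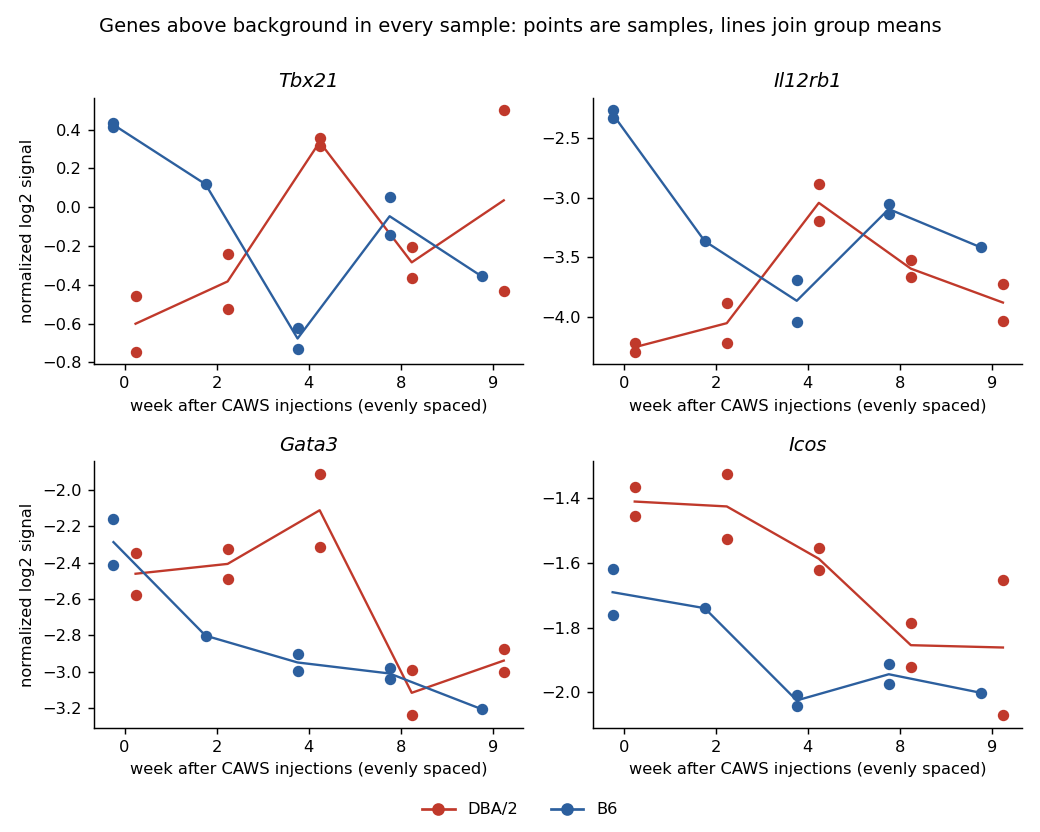
Normalized log2 signal (vertical axis) of the 4 genes well above background in all 18 samples, by week after the CAWS injections (horizontal axis, weeks evenly spaced). Points are samples and lines join group means, red for DBA/2 and blue for B6. At 4 w both DBA/2 samples of Tbx21 (0.36 and 0.31) and of Il12rb1 (-2.89 and -3.20) sit above both B6 samples (-0.73 and -0.63, and -4.04 and -3.69), while at 0 w the order of the strains is the opposite.

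Against 0 w, Tbx21 at 4 w rose in DBA/2 mice by 0.94 ± 0.25 on the log2 scale (SE, 1.91-fold, limma, adjusted p = 0.0349) and fell by 1.10 ± 0.25 in B6 mice (2.15-fold lower, adjusted p = 0.017). Of all tested probes, 14.8% passed the 4 w test in DBA/2 mice and 15.7% passed it in B6 mice. Averaged over 4 w and 8 w, the change was 0.63 ± 0.22 in DBA/2 mice (adjusted p = 0.0684) and -0.79 ± 0.22 in B6 mice (adjusted p = 0.0389). The difference between these changes was 1.41 ± 0.31 (2.66-fold, 95% interval 0.72 to 2.10, adjusted p = 0.0161). Taken singly, week 4 gave a strain difference of 2.04 (adjusted p = 0.00544) and week 9 one of 1.42 (adjusted p = 0.0473), where 11.8% and 12.2% of all probes passed. At 0 w the level in DBA/2 mice was 1.03 ± 0.25 below that in B6 mice (log2 difference -1.03, adjusted p = 0.0115), among 32.7% of all probes that differed. A probe may bind the transcripts of the 2 strains unequally, which was not tested and would cancel in changes within a strain.

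Tbx21 calls often ended when 1 sample was left out. Leaving out any 1 of 14 samples, all but the DBA/2 9 w pair, ended the call over 4 w and 8 w in B6 mice, with values from -0.84 to -0.74. For samples outside that comparison the value stayed at -0.79 and only its adjusted p moved. Any 1 of the same 14 also ended the call of the strain difference at 9 w (1.27 to 1.56), which stayed at 1.42 for samples outside it. That difference was 1.88 without DBA/2 9 w replicate 1 and 0.95 without DBA/2 9 w replicate 2, both called. Leaving out either of these 2 samples made the DBA/2 change over 4 w and 8 w pass the test, at 0.63. The DBA/2 9 w samples had the widest spread of Tbx21 in any group (SD 0.66), and all groups share 1 estimate of the spread. Leaving out any 1 of 10 samples of 0 w, 4 w or DBA/2 8 w ended the call of the rise in DBA/2 mice at 4 w (0.79 to 1.08). The rise stayed at 0.94 where the sample was not of DBA/2 0 w or 4 w. The fall in B6 mice at 4 w was no longer called without either sample of B6 0 w or of B6 4 w (-1.15 to -1.05), and the strain difference over 4 w and 8 w and the difference at 0 w were no longer called without B6 0 w replicate 1 (1.42 and -1.04), B6 0 w replicate 2 (1.40 and -1.01) or DBA/2 0 w replicate 2 (1.27 and -0.88). The strain difference at 4 w kept its call without each of them. Other processing ended calls as well. The B6 change over 4 w and 8 w was not called after scaling by the 75th percentile of all probes (-0.71, adjusted p = 0.0557), quantile normalization (-0.76, adjusted p = 0.0517) or normexp background correction (-0.62), relative to T cell genes (-0.40), without scaling (-0.26) or without the filter on dim probes (-0.79, adjusted p = 0.111). Nor were the DBA/2 rise at 4 w, the B6 fall at 4 w and the strain difference over 4 w and 8 w after normexp (0.83, -0.82 and 1.18), without scaling (0.95, -1.07 and 0.81) or without the filter (adjusted p = 0.103, 0.0588 and 0.0506). The DBA/2 rise was not called in a fit of DBA/2 groups alone (adjusted p = 0.106), nor was the B6 fall relative to T cell genes (-0.78). The strain difference at 9 w was not called after normexp (1.29, adjusted p = 0.0505), relative to T cell genes (1.53), without scaling (0.53) or without the filter (1.42, adjusted p = 0.138). Scaling by the 75th percentile of all probes let the DBA/2 change over 4 w and 8 w pass, at 0.74. With slide as a block, the change over 4 w and 8 w was 0.63 in DBA/2 mice (adjusted p = 0.00326), which passed the test, and -0.74 in B6 mice (adjusted p = 0.005). Within slides, the DBA/2 rise at 4 w was 0.82 and 1.06, and the B6 fall was -1.14 and -1.04.

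Averaged over 4 w and 8 w, markers of NK cells changed in the same directions as Tbx21. Of 9 tested NK cell genes, 8 rose in DBA/2 mice over 4 w and 8 w and 9 fell in B6 mice. The strain difference passed the test for all 9, with a median of 1.39. Of all probes, 9.79% rose in DBA/2 mice, 7.71% fell in B6 mice and 13.2% passed in the strain difference. Their summed level was 6.10 to 6.25 in DBA/2 mice at 0 w, 6.66 to 6.95 at 2 w, 8.64 to 8.96 at 4 w, 8.59 to 8.72 at 8 w and 5.07 to 5.36 at 9 w. In B6 mice it was 10.9 in both samples at 0 w, 10.1 at 2 w, 5.63 to 5.65 at 4 w, 7.41 to 7.54 at 8 w and 6.15 at 9 w. At 9 w in DBA/2 mice, where 27.7% of all probes passed the test, 4 NK cell genes fell and 1 rose (median -0.14). The Tbx21 change there was 0.64 (adjusted p = 0.0917). Cd160 was not above background on any array. The part of NK cells in the Tbx21 values was not tested, and in such bulk samples fewer cells of a type cannot be told apart from less RNA per cell.

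Il12rb1 (NM_008353; chr8:73750279-73750338 on mm8), the chain that interleukin 12 and interleukin 23 receptors share, showed the clearest change of the 9 genes. The DBA/2 samples had levels of -4.22 and -4.29 at 0 w, -3.88 and -4.22 at 2 w, -2.89 and -3.20 at 4 w, -3.67 and -3.52 at 8 w, and -3.72 and -4.03 at 9 w. The B6 samples had levels of -2.26 and -2.33 at 0 w, -3.36 at 2 w, -4.04 and -3.69 at 4 w, -3.05 and -3.13 at 8 w, and -3.42 at 9 w. All later DBA/2 samples but 1 at 2 w lay above both at 0 w, and every later B6 sample lay below both B6 samples at 0 w. B6 0 w was the highest group by a gap of 0.74 to DBA/2 4 w, DBA/2 4 w and B6 8 w overlapped, and from B6 4 w through DBA/2 9 w and DBA/2 2 w to DBA/2 0 w, the lowest, each group overlapped the next.

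Il12rb1 of DBA/2 mice had risen at 4 w by 1.21 ± 0.17 (2.32-fold, adjusted p = 0.00143). The rise at 8 w was 0.66 ± 0.17 (1.58-fold, adjusted p = 0.0194), and the average of both 0.94 ± 0.15 (adjusted p = 0.00158). The gene fell in B6 mice at every later week. At 2 w it fell by 1.07 (adjusted p = 0.00796), at 4 w it fell by 1.57 (2.96-fold lower, adjusted p = 0.000348), at 8 w it fell by 0.80 (adjusted p = 0.00882) and at 9 w it fell by 1.12 (adjusted p = 0.00939). The fall over 4 w and 8 w was -1.18 ± 0.15 (adjusted p = 0.000643). The strain difference was 2.12 ± 0.21 (4.34-fold, 95% interval 1.65 to 2.58, adjusted p = 0.000236). It passed the test at each single week. The 2 w difference was 1.27, against 15.3% of all probes that passed there, the 4 w difference 2.78, the 8 w difference 1.46, against 17.5% of probes, and the 9 w difference 1.49. At 0 w the DBA/2 level was below that of B6 mice by 1.96 ± 0.17 (log2 difference -1.96, 3.88-fold lower, adjusted p = 2.47e-05). The strains thus started far apart. By group mean, DBA/2 mice stood above B6 mice at 4 w only. Their mean was the lower again at 8 w (-3.59 against -3.09), and it was also lower at 2 w and at 9 w.

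Each Il12rb1 call over 4 w and 8 w held without any single sample. The rise at 8 w in DBA/2 mice was no longer called without any 1 of the 4 samples it compares (0.59 to 0.73), nor the fall at 8 w in B6 mice without B6 0 w replicate 1 or B6 8 w replicate 2 (-0.76 for each). With slide as a block, the changes over 4 w and 8 w were 0.94 in DBA/2 mice (adjusted p = 0.00506) and -1.34 in B6 mice (adjusted p = 0.00455). Within slides, the DBA/2 rise at 4 w was 1.33 and 1.09 and the B6 fall -1.78 and -1.52. Without scaling, the strain differences at 8 w (0.27, adjusted p = 0.383) and 9 w (0.60) were not called. Nor was the DBA/2 rise at 8 w without scaling (0.49, adjusted p = 0.0753) or without the filter on dim probes (adjusted p = 0.0646). The B6 falls at 8 w and 9 w were not called without scaling either (0.22 and -0.66). After normexp background correction no single-week strain difference was called. The probe was dim, with processed signals from 16.5 to 67.5. With normexp (offset 50), no change of Il12rb1 over 4 w and 8 w passed the test (0.23, -0.69 and 0.91 in DBA/2 mice, in B6 mice and as strain difference). Nor did any of the other 9 genes, among them Tbx21, with signals from 163 to 623. Over all probes, the calls in DBA/2 mice went from 5246 to 586. The cause of these losses was not tested. Averaged over 4 w and 8 w, NK cell markers changed in the same directions as Il12rb1. But at 2 w in B6 mice, where Il12rb1 fell by 1.07 and 13% of all probes passed, 1 of 9 markers fell and their median was -0.053. At 9 w in DBA/2 mice the Il12rb1 change was 0.37 (adjusted p = 0.136), beside the NK cell median of -0.14. The highest group, B6 0 w, was the group with the most hepatocyte signal. B6 8 w, with the next most, was the second highest B6 group. Its mean was -3.09, against -3.36 at 2 w, -3.86 at 4 w and -3.42 at 9 w. DBA/2 4 w, with a summed hepatocyte level of only 1.03 to 1.64, stood at -3.04. The part of NK cells and of hepatocyte signal in the Il12rb1 values was not tested. Il12rb2, the chain that makes the receptor specific for interleukin 12, was well above background only in DBA/2 0 w replicate 2.

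**Figure D2:**
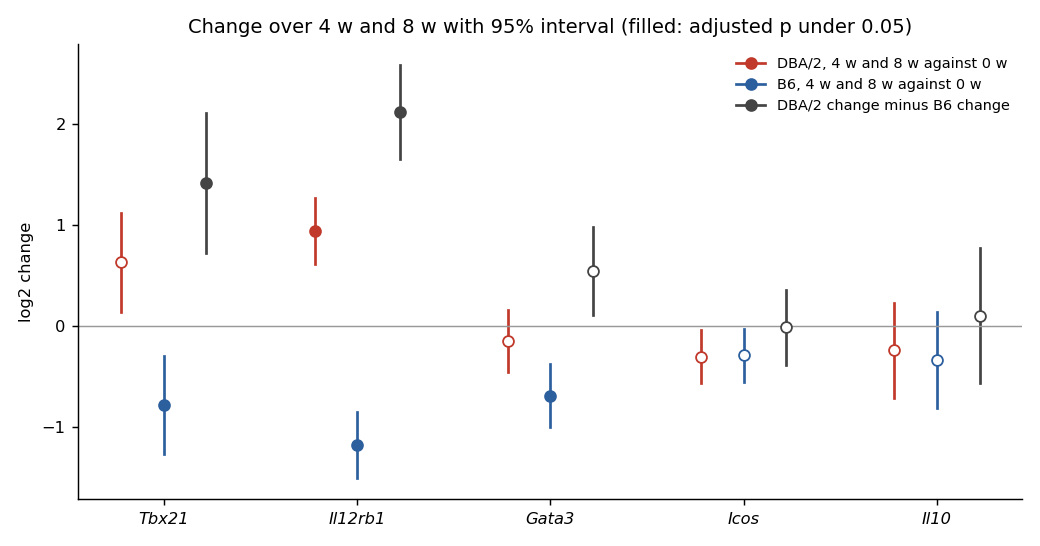
Log2 change from 0 w to the average of 4 w and 8 w (vertical axis) with 95% interval for the 5 genes above background in most samples, in DBA/2 mice (red), in B6 mice (blue) and as their difference (dark grey). Filled points passed the test at an adjusted p under 0.05. The Tbx21 and Il12rb1 changes lie on opposite sides of 0 in the strains, with differences of 1.41 and 2.12, while those of Icos lie together at -0.31 and -0.29.

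Gata3 (NM_008091; chr2:9775209-9775268 on mm8), the factor of the Th2 fate, fell in both strains, with changes that passed the test from 4 w on in B6 mice and from 8 w on in DBA/2 mice. The DBA/2 levels were -2.58 and -2.35 at 0 w, -2.49 and -2.32 at 2 w, -2.31 and -1.91 at 4 w, -3.24 and -2.99 at 8 w, and -2.88 and -3.00 at 9 w. The B6 levels were -2.41 and -2.16 at 0 w, -2.80 at 2 w, -2.90 and -3.00 at 4 w, -2.98 and -3.04 at 8 w, and -3.21 at 9 w. Thus all later B6 samples lay below both at 0 w, while in DBA/2 mice only those of 8 w and 9 w did. DBA/2 4 w, B6 0 w, DBA/2 2 w and DBA/2 0 w overlapped at the top of the order, and the groups from DBA/2 9 w down overlapped at its foot.

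Gata3 of B6 mice fell at 4 w, where the change was -0.66 (adjusted p = 0.0207), at 8 w with -0.72 (adjusted p = 0.0102) and at 9 w with -0.92 (adjusted p = 0.0173), each with an SE of 0.16 to 0.19, and the change over 4 w and 8 w was -0.69 ± 0.14 (1.62-fold lower, adjusted p = 0.00831). The fall in DBA/2 mice was called at 8 w, with a change of -0.66 ± 0.16 (adjusted p = 0.0144), and at 9 w, with -0.48 (adjusted p = 0.0498). Their 4 w change was 0.35 (adjusted p = 0.192) and the average of 4 w and 8 w was -0.15 (adjusted p = 0.506). The strains differed at 4 w, by 1.01 ± 0.22 (adjusted p = 0.0173). The difference over 4 w and 8 w was 0.54 (95% interval 0.10 to 0.98, adjusted p = 0.106) and that at 8 w 0.068 (95% interval -0.43 to 0.57). At 8 w, 24% of all probes passed in DBA/2 mice and 21.2% in B6 mice. At 9 w the shares were 27.7% and 9.33%.

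B6 0 w replicate 2 decided the B6 calls of Gata3: without it the 4 w change was -0.54 (adjusted p = 0.132), the 8 w change -0.60 (adjusted p = 0.0764), the 9 w change -0.79 (adjusted p = 0.0819) and -0.57 the change over 4 w and 8 w (adjusted p = 0.0934). The fall at 4 w also lost its call without either B6 4 w sample (-0.71 and -0.61) and that at 8 w without B6 8 w replicate 2 (-0.69). Among DBA/2 mice the fall at 8 w lost its call without DBA/2 8 w replicate 1 (-0.53) or DBA/2 0 w replicate 2 (-0.54), and that at 9 w without any 1 of 14 samples (-0.59 to -0.36). The strain difference at 4 w was no longer called without DBA/2 0 w replicate 1 (0.89), B6 0 w replicate 2 (0.89), B6 4 w replicate 2 (0.96) or DBA/2 4 w replicate 2 (0.81), and that over 4 w and 8 w was called without DBA/2 4 w replicate 1 (0.64). After scaling by the 75th percentile of all probes, quantile normalization or with no filter on dim probes, neither the B6 fall at 4 w (-0.56, -0.56 and -0.66) nor the DBA/2 fall at 8 w (-0.51, -0.51 and -0.66) was called. With slide as a block, the change over 4 w and 8 w was -0.15 in DBA/2 mice and -0.71 in B6 mice (adjusted p = 0.00923), and their difference, 0.55, passed the test (adjusted p = 0.0413). Within slides, Gata3 changed by -0.66 and -0.65 at 8 w in DBA/2 mice and by -0.85 in B6 replicate 2, whose 8 w array and one 0 w array are the only B6 arrays of these times on 1 slide.

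The fall of Gata3 came with a fall of T cell genes in general. Of the 8 pan T cell genes, 5 fell over 4 w and 8 w in DBA/2 mice (median -0.44) and 5 in B6 mice (median -0.33), against 13.1% and 7.71% of all probes. Their summed level went from 15.5 to 16.0 at 0 w to 9.36 to 9.38 at 8 w in DBA/2 mice, and from 13.8 to 14.2 to between 11.2 and 12.5 in B6 mice. Relative to the mean of 6 T cell genes (Cd3d, Cd3e, Cd3g, Cd5, Cd6 and Lck), Gata3 changed by 0.023 at 8 w in DBA/2 mice (adjusted p = 0.933) and by -0.30 over 4 w and 8 w in B6 mice (adjusted p = 0.122), and neither passed the test. Its DBA/2 change at 4 w, 0.64 (adjusted p = 0.0183), did pass on that scale, as a rise, and the strain difference at 4 w was 0.98 (adjusted p = 0.0217). On the same scale Il12rb1 rose by 1.42 in DBA/2 mice (adjusted p = 0.000157) and fell by 0.79 in B6 mice (adjusted p = 0.0065) over 4 w and 8 w, and Tbx21 rose by 1.11 in DBA/2 mice (adjusted p = 0.00449) and changed by -0.40 in B6 mice (adjusted p = 0.243). The single-week falls of Il12rb1 in B6 mice at 8 w and 9 w were not called there (-0.34 and -0.61). The DBA/2 rises at 9 w were called there (1.00 for Il12rb1 and 1.26 for Tbx21). The strain differences there were 2.21 for Il12rb1 and 1.51 for Tbx21 (adjusted p = 0.000505 and 0.0193). On that scale the median of all tested probes is 0.35 in DBA/2 mice and 0.31 in B6 mice, so that most probes appear to rise.

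**Figure D3:**
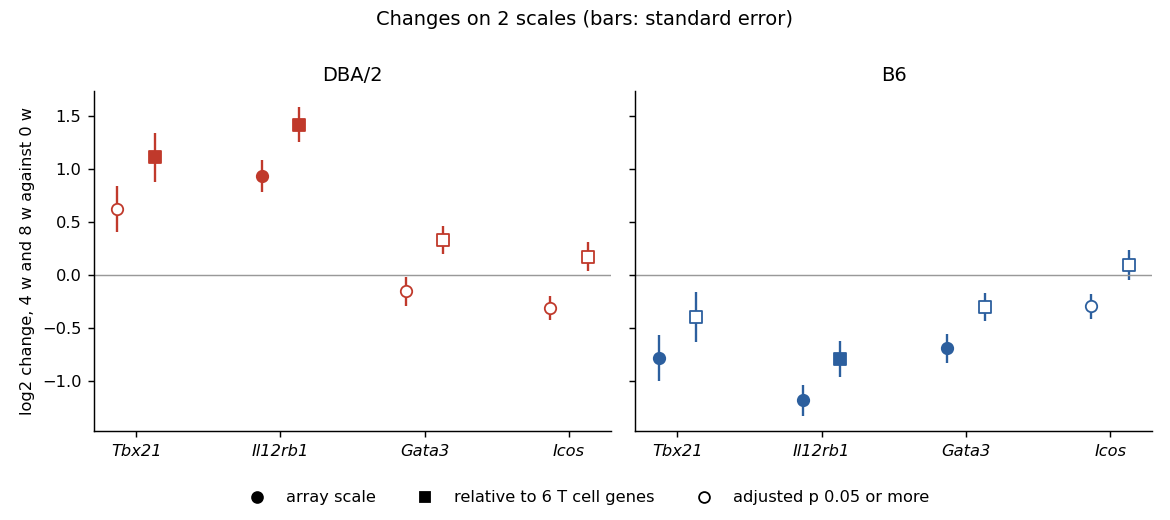
Log2 change from 0 w to the average of 4 w and 8 w (vertical axis, bars are standard errors) of 4 genes in DBA/2 mice (left) and B6 mice (right), on the array scale (circles) and relative to the mean of 6 T cell genes (squares). Filled symbols passed the test. Gata3 in B6 mice goes from -0.69 to -0.30 and Icos in DBA/2 mice from -0.31 to 0.17, while Il12rb1 keeps its call and direction on both scales.

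Icos was measured by 2 probes in all 18 samples, at chr1:60944773-60944832 (AK030827), the brighter, and at chr1:60942805-60942864 (NM_017480) on mm8. On the brighter probe the levels in DBA/2 mice were -1.37 and -1.45 at 0 w, -1.32 and -1.53 at 2 w, -1.55 and -1.62 at 4 w, -1.79 and -1.92 at 8 w, and -1.65 and -2.07 at 9 w. For B6 mice they were -1.62 and -1.76 at 0 w, -1.74 at 2 w, -2.04 and -2.01 at 4 w, -1.91 and -1.97 at 8 w, and -2.001 at 9 w. Samples of 4 w and later lay below both samples of 0 w in each strain. Icos fell in DBA/2 mice by 0.44 ± 0.14 at 8 w (1.36-fold lower, adjusted p = 0.0403), and the 9 w change was -0.45 (adjusted p = 0.0339). Over 4 w and 8 w the changes were -0.31 in DBA/2 mice (adjusted p = 0.0907) and -0.29 in B6 mice (adjusted p = 0.134), and their difference was -0.016 (95% interval -0.39 to 0.36). The call at 8 w was lost without any 1 of 12 samples (-0.51 to -0.38) and that at 9 w without either DBA/2 0 w sample (-0.41 and -0.49) or DBA/2 9 w replicate 2 (-0.24). The other probe gave an 8 w change of -0.42 (adjusted p = 0.207) and a 9 w change of 0.079 (adjusted p = 0.834) in DBA/2 mice, so the 2 probes differ in direction at 9 w. Relative to the 6 T cell genes, Icos changed by 0.17 in DBA/2 mice and 0.097 in B6 mice over 4 w and 8 w. With slide as a block, both strains' changes passed the test, at -0.31 (adjusted p = 0.0144 and 0.0295), and so they did with replicate number as a block (-0.31 and -0.29, adjusted p = 0.0292 and 0.0469). The DBA/2 falls at 8 w and 9 w were not called after scaling by the median (-0.36 and -0.41), with no filter on dim probes or with DBA/2 groups alone. With the mean of the 2 probes they were -0.43 (limma, adjusted p = 0.0787) and -0.19 (adjusted p = 0.431), neither called. The 8 w fall was also not called with the 75th percentile of all probes (-0.30), quantiles (-0.37) or normexp (-0.34).

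Il10 (NM_010548; chr1:132851912-132851971 on mm8) is printed 10 times on each array and was well above background in 15 of 18 samples, all but DBA/2 0 w, DBA/2 4 w and B6 8 w of replicate 2. Il10 levels of DBA/2 mice were -4.29 and -4.30 at 0 w, -4.29 and -4.47 at 2 w, -4.32 and -4.63 at 4 w, -4.65 and -4.58 at 8 w, and -3.95 and -4.10 at 9 w. Il10 levels of B6 mice were -3.49 and -4.21 at 0 w, -3.43 at 2 w, -3.47 and -4.07 at 4 w, -4.59 and -4.62 at 8 w, and -4.05 at 9 w. The group mean was lowest at 8 w in each strain, though in DBA/2 mice the 4 w and 8 w samples overlapped. On the array scale no change of Il10 passed the test. Over 4 w and 8 w it was -0.24 in DBA/2 mice (95% interval -0.72 to 0.23) and -0.34 in B6 mice (95% interval -0.81 to 0.13), with a difference of 0.097 (95% interval -0.57 to 0.77). The nearest to the threshold was 8 w in B6 mice, at -0.76 (adjusted p = 0.0526). It was -1.11 in replicate 1, across slides, and -0.19 within the slide of replicate 2. Relative to the 6 T cell genes, the DBA/2 change at 9 w passed, at 0.90 (adjusted p = 0.0122), against 0.27 on the array scale (adjusted p = 0.46).

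Foxp3, Ctla4 and Il2ra, which mark regulatory T cells, and Il12rb2 were near or under the detection limit of whole blood leukocytes on this array. Foxp3 (NM_054039) was well above background in 1 of 18 samples, DBA/2 9 w replicate 1, at -3.62. Its other samples lay between -7.66 and -5.32. Ctla4 (NM_009843) was above background in none, with levels from -7.80 to -5.13, and Il12rb2 (NM_008354) in 1, DBA/2 0 w replicate 2 at -4.31, with all others at -5.01 or below. Of the 4 Il2ra probes, the brightest (AF054581; chr2:11610658-11610719 on mm8) was above background in 4 samples: B6 0 w replicate 1 at -4.95, B6 2 w at -4.32, DBA/2 2 w replicate 1 at -5.09 and DBA/2 4 w replicate 1 at -5.19. The other 3 Il2ra probes were above background in 1, 0 and 0 samples. No change of Il2ra passed the test, and for values this near to the background no fold is given. Changes of these 4 genes were not detectable on these arrays, which does not show that they are absent.

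**Figure D4:**
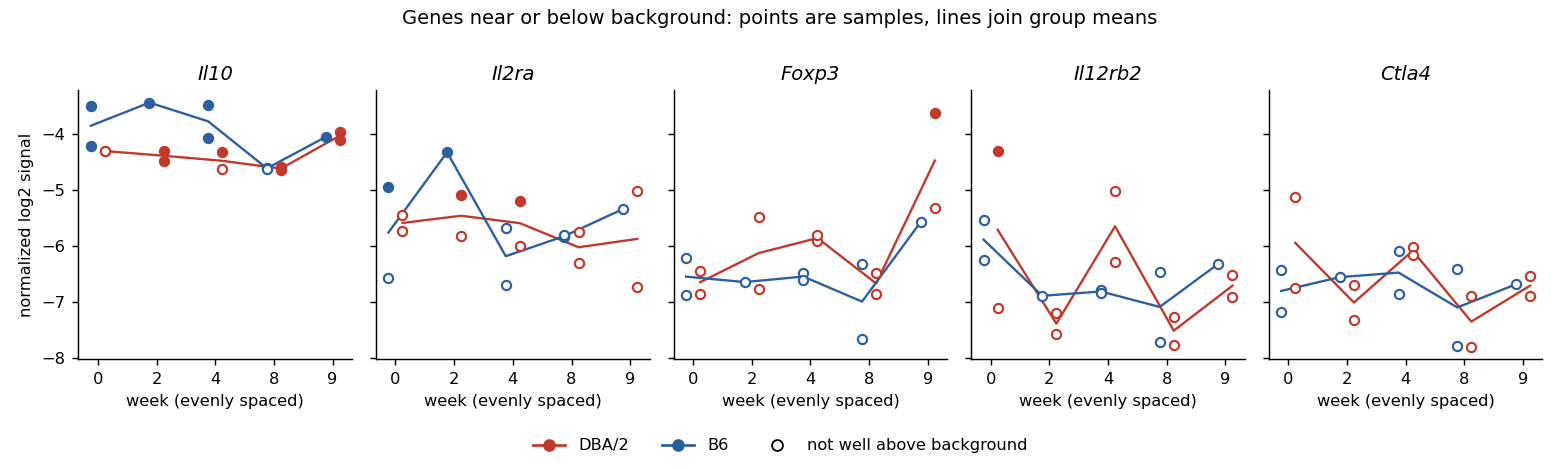
Normalized log2 signal (vertical axis) of the 5 genes not above background in every sample, by week (horizontal axis, weeks evenly spaced), in DBA/2 mice (red) and B6 mice (blue). Filled points are samples well above background, open points are not, and lines join group means. Il10 is filled in 15 of 18 samples, Il2ra in 4, Foxp3 and Il12rb2 in 1 each and Ctla4 in 0.

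Counted over the 9 genes, 1 passed the test over 4 w and 8 w in DBA/2 mice (Il12rb1, higher), against 22.9% of all probes tested. In B6 mice 3 passed (Tbx21, Il12rb1 and Gata3, all lower), against 15% of all probes. In the strain difference 2 passed, against 13.2%, Tbx21 and Il12rb1, whose changes from 0 w were higher in DBA/2 mice. Their mean levels at 8 w were lower in DBA/2 than in B6 mice (Tbx21 -0.28 against -0.05, Il12rb1 -3.59 against -3.09). For each later week 6 of the 9 genes were tested. Per week, 14.8% to 27.7% of all probes passed in DBA/2 mice and 9.33% to 21.2% in B6 mice. Counted over these single weeks, 7 changes of the 9 genes passed in DBA/2 mice and 8 in B6 mice. None passed at 2 w in DBA/2 mice, where 15.7% of all probes did, and 1 did in B6 mice, against 13%.

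The wider programmes to which these genes belong were described by lists of genes chosen with earlier results known. Of the Th1 programme, 11 of 13 genes were tested. Over 4 w and 8 w 6 rose and 0 fell in DBA/2 mice, and 0 rose and 6 fell in B6 mice. The changes of 7 differed between strains, all with the higher change in DBA/2 mice. The median changes were 0.63, -0.38 and 0.76, against medians of all tested probes of -0.14, -0.08 and -0.04. For DBA/2 mice 9.79% of all probes rose and 13.1% fell, for B6 mice 7.28% and 7.71%, and for the strain difference 6.48% and 6.73%. Genes with large rises in DBA/2 mice were Ifng, the Th1 cytokine (1.64, adjusted p = 5.42e-06), Il18rap, a chain of the interleukin 18 receptor (1.03), the chemokine receptor Cxcr3 (0.66), and Il12rb1. In B6 mice Ifng changed by -0.64 and Cxcr3 by -0.77, both called, and Il18rap by 0.30 (adjusted p = 0.0504). NK cells also make interferon-gamma and carry the receptors for interleukins 12 and 18, and the NK cell values given for Tbx21 stand beside this list as well.

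The counts of the next lists and markers stand beside the same shares of all probes. In DBA/2 mice 9.79% rose and 13.1% fell, and in B6 mice 7.28% rose and 7.71% fell. In the strain difference 6.48% were higher and 6.73% lower. Of the Th2 programme, 9 of 12 genes were tested. The 2 that rose in DBA/2 mice were Il4, the Th2 cytokine (0.98), and Stat6, which carries its signal (0.47), while 0 fell, with a median of -0.15. In B6 mice 0 rose and 3 fell, Gata3, Il4 (-0.64) and, named after its value was seen, Il1rl1, the interleukin 33 receptor (-0.74), with a median of -0.67, and the strain difference passed for Il4 alone (1.63). Basophils also make Il4, and of 7 basophil or mast cell markers 3 rose and 0 fell in DBA/2 mice (median 0.52), 2 rose and 1 fell in B6 mice (median -0.23), and 3 were higher and 1 lower in the strain difference. Their summed level was 1.54 to 1.56 at 0 w, 3.13 to 3.30 at 4 w and 3.52 to 3.82 at 8 w in DBA/2 mice, and 1.39 to 1.53, 2.21 to 2.26 and 3.88 to 3.90 in B6 mice, and their part was not tested. Il5 and Ccr4 were above background on no array. Of the Th17 programme, 6 of 12 genes were tested, and Il17a, Il17f, Il21, Il22 and Il23r were above background on no array. Among DBA/2 mice Ahr (1.21), Batf (0.50) and Stat3 (0.41), which other leukocytes also use, rose and the chemokine receptor Ccr6 fell by 0.67. In B6 mice Ahr (0.60) and Stat3 (0.36) rose and none fell, and the strain difference passed for Ccr6 (-0.69). B cells carry Ccr6 too, and of 8 B cell markers 6 fell in DBA/2 mice (median -0.62) and 0 in B6 mice (median -0.20), with 4 lower in the strain difference. Their summed level was 28.1 to 29.9 at 0 w and 18.4 to 20.4 at 4 w and 8 w in DBA/2 mice, against 21.1 at 0 w and 16.1 to 21.8 in B6 mice. Their part was not tested.

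Over all probes, 9.79% rose and 13.1% fell in DBA/2 mice, 7.28% rose and 7.71% fell in B6 mice, and 13.2% passed in the strain difference. Of the regulatory T cell programme, 11 of 15 genes were tested, Lrrc32 had no probe, and Lag3 was above background on no array. In DBA/2 mice 4 rose and 0 fell, with a median of -0.22: Entpd1 (1.66) and Nt5e (0.42), the ectoenzymes that make adenosine, Ebi3 (0.97), a chain of interleukins 27 and 35, and Tgfb1 (0.35). In B6 mice Entpd1 (1.11) and Tgfb1 (0.71) rose and 0 fell, with a median of -0.20. The strain difference passed for Ebi3, Nt5e and Entpd1, whose changes were higher in DBA/2 mice, and for Tgfb1, whose change was lower (-0.36). The 3 tested genes among the 9, Il2ra, Icos and Il10, were not among those that passed. The genes that rose are not restricted to T cells, and markers of myeloid cells rose beside them: all 9 neutrophil genes rose in both strains, and of 8 monocyte or macrophage genes 7 rose in DBA/2 mice and 2 in B6 mice. Their part was not tested.

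**Figure D5:**
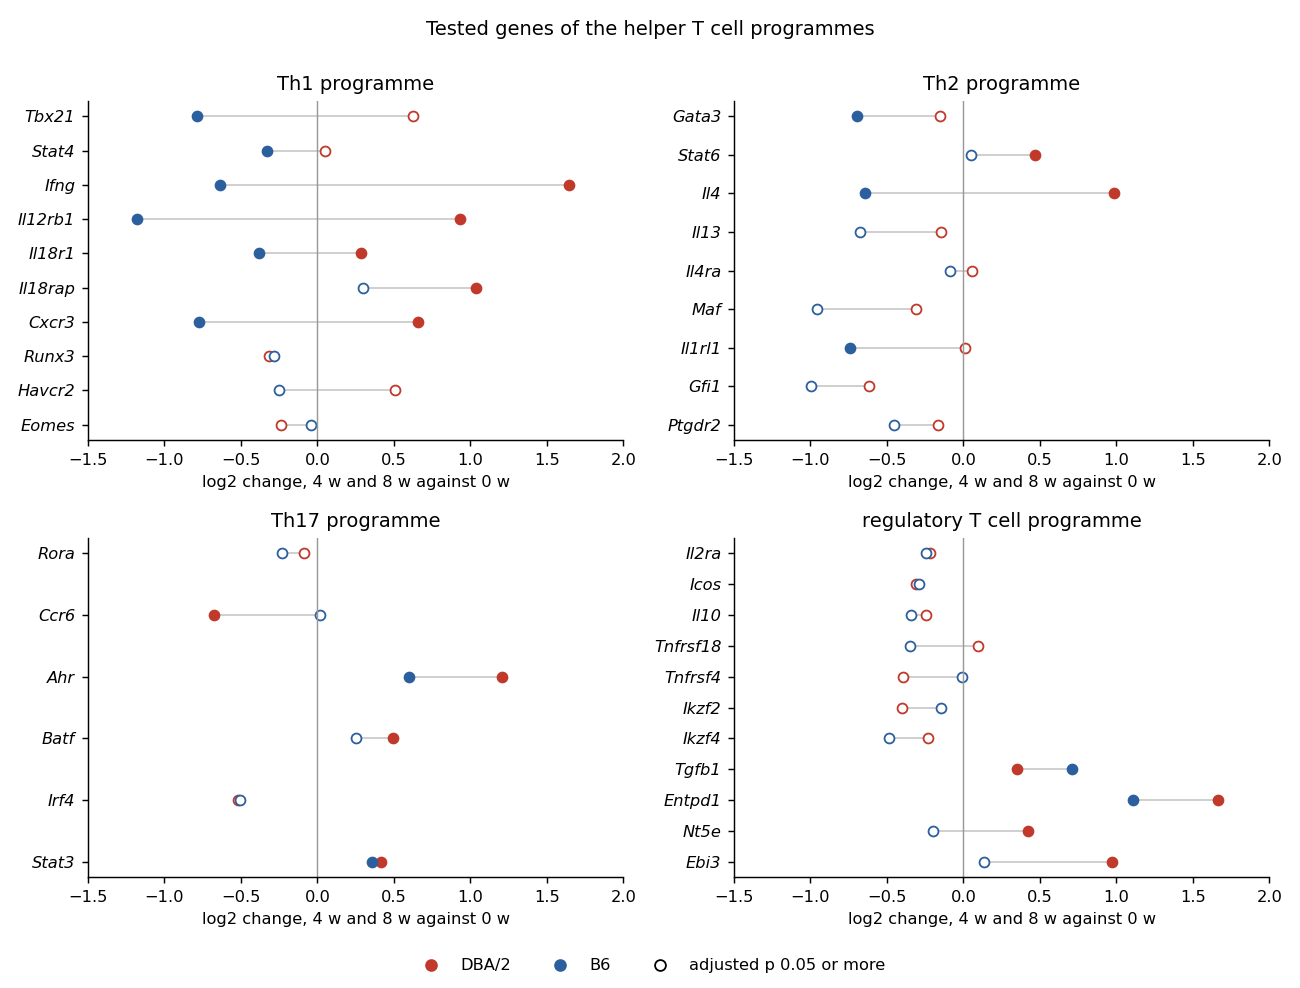
Log2 change from 0 w to the average of 4 w and 8 w (horizontal axis) of tested genes of 4 helper T cell programmes (10 of the 11 of the Th1 list and all of the others) in DBA/2 mice (red) and B6 mice (blue), 1 gene a line, with filled points for an adjusted p under 0.05. In the Th1 panel 5 filled DBA/2 points lie right of 0 and 6 filled B6 points lie left of it. In the Th2 panel 2 filled DBA/2 points lie right and 3 filled B6 points left of 0.

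Genes of activation and costimulation went both ways. Of 11 tested, 3 rose and 4 fell in DBA/2 mice, and 1 rose and 5 fell in B6 mice. For these genes and the cytokines below, the shares of all probes were 9.79% higher and 13.1% lower in DBA/2 mice. In B6 mice they were 7.28% and 7.71%. Il2rb, the interleukin 2 receptor chain that NK cells carry, rose by 0.72 in DBA/2 mice and fell by 1.18 in B6 mice, with a strain difference of 1.91. Cd44 (0.58), an adhesion molecule of many leukocytes, rose in DBA/2 mice, and the inhibitory receptor Btla (-0.64) and the lymph node homing receptor Ccr7 (-0.54) fell. B cells carry both, and the B cell values given for Ccr6 stand beside them. Of the 7 tested polarising cytokines, 4 rose in DBA/2 mice: Il1b (2.55), Il18 (0.52), Tgfb1 and Il6, for which no fold is given because it was above background in 3 of 18 samples. Il12b, the chain shared by interleukins 12 and 23, and Il23a were above background on no array. In B6 mice Il1b (2.40) and Tgfb1 (0.71) rose and no gene of this list fell.

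The genes whose levels over the 18 samples were most like those of the 4 fully measured members were sought among 11068 probes above background in all samples. These correlations describe samples that share strain, week and cell make-up. For Tbx21 they were Acly, P2rx7 and Rxra (Pearson's r = 0.85, 0.85 and 0.84). For Il12rb1 they were Apoe, Akr1c13 and Nkg7 (0.91, 0.90 and 0.89). For Gata3 they were Dbp, Timm9 and Chd3 (0.81 each), and for Icos Haus4, Naa30 and Gramd1a (0.92, 0.91 and 0.91). Among the members themselves r was 0.71 between Tbx21 and Il12rb1, 0.68 between Gata3 and Icos, and between -0.14 and 0.30 for the other pairs.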

How the data were processed

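The authors labelled leukocyte RNA with Cy3, hybridized it to Agilent mouse arrays and scanned them. The deposited output of Agilent Feature Extraction 9.5.3.1 (version per the labels) gives for each spot a processed signal, an intensity on a linear scale from which the software has subtracted the background, without normalization between arrays. The deposited value table holds the same intensity averaged over spots. From these, log2 signals were computed, control and outlier-marked spots were dropped, spots of a probe and both arrays of B6 0 w replicate 2 were averaged, and each array's 75th percentile over the 11536 probes that each of the 19 arrays detected was subtracted. The scaling sets changes relative to the bulk of expressed genes.

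A linear model with a mean for each of 10 groups (lmFit and eBayes of limma 3.58.1, R 4.3.3) was fitted to the 22939 probes detected above background in 2 or more of 18 samples. The fit leaves 8 residual degrees of freedom, the prior adds 1.37, and the spread of the lone B6 samples is taken to equal that of the other groups. The p values are two-sided, from limma's moderated test, and adjusted by the Benjamini-Hochberg method over all tested probes, with a threshold of 0.05. A gene's main probe is the one with the highest mean level. In each programme list up to 5 of the largest called changes are named, and the 3 genes most like each member. Some list genes are counted but are not reported here by name. The members and lists were chosen with earlier results of these data known. The number of arrays limits the precision. Positions of probes come from the deposited files (mm8). The procedure was tested on simulated data. Tables were made with Python 3.11.15, numpy 2.4.6, pandas 2.3.3, scipy 1.17.1 and matplotlib 3.10.9. Alternatives were normexp background correction (offset 50), scaling by the 75th percentile of all probes, by the median, by quantiles or by T cell genes, the unscaled table, other filters, outlier spots kept, replicate number or slide as a block, each strain alone, single arrays, array weights, the mean of a gene's probes, and each replicate left out. The differences at 0 w and at single weeks were put through the same alternatives after the data had been seen.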

Additional observations from a re-analysis of the deposited data

Results flagged for a closer look

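Groups held 1 or 2 samples, too few to test any sample as an outlier within its group. The results below are those where the change from 0 w differed between the strains by the limma test of the difference itself, each on the log2 scale as the DBA/2 change minus the B6 change. For Il12rb1 the difference was 2.12 over 4 w and 8 w, and in the single weeks 1.27 (2 w), 2.78 (4 w), 1.46 (8 w) and 1.49 (9 w). For Tbx21 it was 1.41 over 4 w and 8 w, 2.04 at 4 w and 1.42 at 9 w. For Gata3 it was 1.01 at 4 w.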

How the results depend on the processing

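Of 1228 single values of the genes recomputed under the alternatives, 995 kept their direction and side of the threshold, 185 lost and 18 gained their call and 30 changed sign. Over 4 w and 8 w, the number of the 9 genes called in DBA/2 mice, 1, became 0 with normexp, 2 with the 75th percentile of all probes, with T cell centring, with the unscaled table and with array weights, and 3 with slide as a block (1 to 3 without single replicates). The 3 in B6 mice became 0 with normexp and 1 with T cell centring or the unscaled table (1 to 4). The 2 strain differences became 0 with normexp and 1 with no filter (1 to 3). In the unscaled table they were still 2 but not the same genes, since Tbx21 lost its call (0.81, adjusted p = 0.107) and Icos gained one (-0.62, adjusted p = 0.0162). The 7 weekly calls in DBA/2 mice became 0 with normexp, 4 with the 75th percentile of all probes, the median, quantiles or the mean of a gene's probes, 1 with no filter and 3 with DBA/2 groups alone (1 to 7). The 8 in B6 mice became 0 with normexp, 2 with T cell centring and 5 with the unscaled table, no filter or B6 groups alone (5 to 11). The cause was not tested.

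Signs turned as follows. With T cell centring, Gata3 in DBA/2 mice was 0.33 over 4 w and 8 w, 0.023 at 8 w and 0.15 at 9 w. Icos was 0.17, 0.23 and 0.17 there, 0.097 in B6 mice over 4 w and 8 w and 0.078 as strain difference, and Il10 was 0.24 in DBA/2 and 0.049 in B6 mice. In the unscaled table, the strain difference was -0.064 for Gata3 and -0.49 for Il10, the B6 change at 8 w was 0.30 for Gata3 and 0.22 for Il12rb1, and that over 4 w and 8 w was 0.23 for Icos and 0.13 for Il10. With normexp, Gata3 was 0.53 and Icos 0.034 in DBA/2 mice at 9 w, and the Icos strain difference was 0.069. That difference was also 0.022 with the 75th percentile of all probes and 0.015 with the median, and -0.088 to 0.055 without single replicates, above 0 without DBA/2 0 w replicate 1, B6 0 w replicate 2, DBA/2 4 w replicate 2 or DBA/2 8 w replicate 2. The Il10 strain difference was -0.20 with slide as a block, -0.016 with array 2 of B6 0 w replicate 2 alone and -0.26 to 0.46 without single replicates, below 0 without B6 0 w replicate 1 or B6 4 w replicate 2, and the Il10 change in B6 mice was -0.70 to 0.019, above 0 without B6 0 w replicate 1.

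With replicate number as a block, 2 of the 9 genes were called in DBA/2 mice over 4 w and 8 w, neither of them Tbx21 (0.63, adjusted p = 0.0744), and Icos passed in both strains (-0.31 and -0.29, adjusted p = 0.0292 and 0.0469). Deviations of same-numbered samples correlated at 0.36 to 0.41 in B6 mice (3 pairs), at 0.73 to 0.82 among the DBA/2 groups of 0 w to 8 w (6 pairs) and at 0.02 to 0.20 between these and DBA/2 9 w (4 pairs). Because some pairs lay under 0.1, the numbers were not taken as pairing over the whole design, though within B6 mice and without DBA/2 9 w every pair lay above it.

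Over all probes, calls in DBA/2 mice, B6 mice and the strain difference were 5246, 3438 and 3031, with normexp 586, 179 and 90, and with no filter 3055, 1632 and 1260. Those of single settings were 3477 (DBA/2) and 1964 (difference) with the mean of a gene's probes, 6573 (B6) with T cell centring, 9374 (B6) and 9196 (difference) with the unscaled table, 2121 with B6 groups alone and 4669 (difference) with slide as a block. Without single replicates they were 3068 to 5593, 1710 to 3743 and 1804 to 3229. Those without a 0 w sample were the lowest, in DBA/2 mice 3098 and 3068 without DBA/2 0 w replicate 1 and 2, in B6 mice 1710 and 1839 without B6 0 w replicate 1 and 2, and for the difference 1836, 1848, 1804 and 1938 without these in turn. Higher probes were 42.8%, 48.5% and 49.1% of calls, with T cell centring 95.8%, 93.6% and 63.9%, with normexp 79.5%, 75.4% and 84.4%, without scaling 32.6%, 96.5% and 4.93%, with the 75th percentile of all probes 63.0%, 65.3% and 55.3%, with quantiles 53.8%, 59.3% and 51.2% and with the median 54.1%, 56.2% and 54.0%. Signal over background limits Foxp3, Ctla4, Il12rb2 and Il2ra.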
